A study of Mus musculus with 6 samples.

Results

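The 41 genes described here carry the fibroblast growth factor (FGF) signal to the mitogen-activated protein kinase ERK or answer to it. They are 4 FGF ligands, 4 FGF receptors, 6 genes of the kinase cascade, 6 inhibitors of the Sprouty, Spred and Sef kinds, 10 dual-specificity phosphatases, 3 ETS transcription factors and 8 immediate-early genes. They were chosen by name, as listed ligand, receptor, cascade and feedback genes, with no threshold on a value. Earlier results of these data were known when they and the other lists below were chosen, so the choice was not independent of the data. All 41 were found among the 41388 gene rows of the count table, and all 41 entered the test.

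RNA was measured in 6 lines of mouse induced pluripotent stem cells (iPSCs), somatic cells returned to a pluripotent state. The groups were 3 miR-34a-/- lines, which lack the microRNA miR-34a, and 3 wild-type lines, all of strain C57BL/6. Fibroblasts from littermate embryos at E13.5 had been reprogrammed with retroviral Oct4, Sox2 and Klf4, and every line grew on irradiated fibroblast feeders. Each line was expanded from a single picked colony, and the poly(A) RNA of each line gave 1 strand-specific bulk library.

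FGF signalling in pluripotent cells starts when a secreted FGF binds a tyrosine kinase receptor together with heparan sulfate. The receptor recruits the adaptors Shc and Grb2 and the exchange factor Sos, which load RAS with GTP, and RAS then drives the relay of RAF, MEK and ERK kinases. ERK switches on immediate-early genes, ETS factors and its own inhibitors, among them Sprouty proteins and phosphatases, so transcript levels of these output genes are widely read as traces of pathway activity. In mouse pluripotent cells the signal, fed by the cells' own Fgf4, is known for moving cells out of the naive state and towards primitive endoderm.

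The deleted microRNA pairs with its targets through its seed, bases 2 to 8. Some other mouse microRNAs with the same seed were picked by name from the RefSeq table used, which was not searched for further ones. The mature sequence and theirs are shown because they fix what a direct target would carry, with the seed in capitals:

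miR-34a-5p: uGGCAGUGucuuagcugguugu

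miR-34b-5p: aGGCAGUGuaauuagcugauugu

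miR-449a-5p: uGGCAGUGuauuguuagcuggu

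miR-449c-5p: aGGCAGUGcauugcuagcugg

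The mature miR-34a-5p lies at chr4:150068473-150068494 on the plus strand (GRCm38.p6). The letters CACTGCC, which pair with this seed, occurred in annotated 3′ UTRs of 5 of the 41 genes (12.2%), against 2303 of the 13409 tested genes with an annotated 3′ UTR (17.2%). The 5 were the receptor gene Fgfr1, the inhibitor gene Il17rd, the phosphatase gene Dusp8 and the immediate-early genes Fos and Fosb. Their sites are shown with 10 bases on either side, and capitals mark the seed match:

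Fgfr1: ttgttggacaCACTGCCtttctcctcc

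Il17rd: gcgctgcctcCACTGCCaccgccatca

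Dusp8: cttacctggtCACTGCCggcactggaa

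Fos: ccagacgtgcCACTGCCcgagctggtg

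Fosb: aagggcctgcCACTGCCgaccacaatt

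They lie in the mm10 build at chr8:25573987-25574013 (Fgfr1, plus strand), chr14:27105311-27105337 (Il17rd, plus), chr7:142079683-142079709 (Dusp8, minus), chr12:85476488-85476514 (Fos, plus) and chr7:19302863-19302889 (Fosb, minus). Il17rd alone had the longer match with an A after the seed match. Of these 5 genes, Fos and Fosb were higher in the knockout lines, Il17rd was lower, and Fgfr1 and Dusp8 were not called. The median log2 fold change over all tested genes was 0.03 with a match and 0.00 without one. A match is a description of letters and was not tested as a binding site.

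The libraries held 20877988, 29654855 and 8721581 counts in knockout replicates 1 to 3 and 25698286, 8432597 and 16760545 counts in wild-type replicates 1 to 3. CPM are read counts scaled to a common library size with TMM factors, and at the smallest depth 3 counts correspond to 0.378 CPM, so values near that level rest on few reads. Means carry the SD over the lines of a genotype (n = 3 each), and log2 fold changes, knockout over wild-type, carry the SE of the fit. Calls are those of edgeR's quasi-likelihood test with Benjamini-Hochberg adjustment over all 14717 genes tested, at an adjusted p under 0.05. Transcripts of the Y chromosome separated the genotypes: Ddx3y had 1 to 6 counts in knockout libraries and 102 to 265 counts in wild-type libraries, and Kdm5d, Eif2s3y and Uty likewise had 0 to 3 counts in knockout and 33 to 436 counts in wild-type libraries. The genotype and the sex-chromosome make-up of the lines cannot be told apart for any gene. Pluripotency markers were present in both genotypes, with Pou5f1 at 1182 ± 81.9 CPM in knockout and 870.3 ± 71.8 CPM in wild-type lines. Pou5f1 encodes Oct4, and its counts were not split into those of the cells' own gene and of the retrovirus. Esrrb, not among the reprogramming factors, was at 1044 ± 28.4 CPM in knockout and 764.1 ± 10.7 CPM in wild-type lines.

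FGF and ERK feedback genes moved in both directions. In the knockout lines 15 of the 41 were higher, 13 were lower and 13 were not called. Over all genes tested, 50.5% were called, 26.5% higher and 24.0% lower. The groups did not overlap in 30 of the 41 genes, against 56.1% of all genes tested. The median log2 fold change of the 41 was 0.00 and the median of its absolute values was 0.39, against 0.01 and 0.27 over all genes tested. Without Fgf8, which passed the count filter through its wild-type libraries, 15 genes were higher and 12 lower, and without the X-linked Dusp9 the counts were 14 and 13. Of the 41, 6 were called and at least 2-fold higher, against 7.6% of all genes tested, and 2 were called and at least 2-fold lower, against 2.7%. The 2 were Fgfr2 and Fgf8, so without Fgf8 only Fgfr2 was left. The largest called increases were in Spry4, Phlda1, Egr1, Fgfr4, Fosb and Fgf15. Apart from Fgf8, the largest called decreases were in Fgfr2, Spred1 and Braf.

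**Figure D1:**
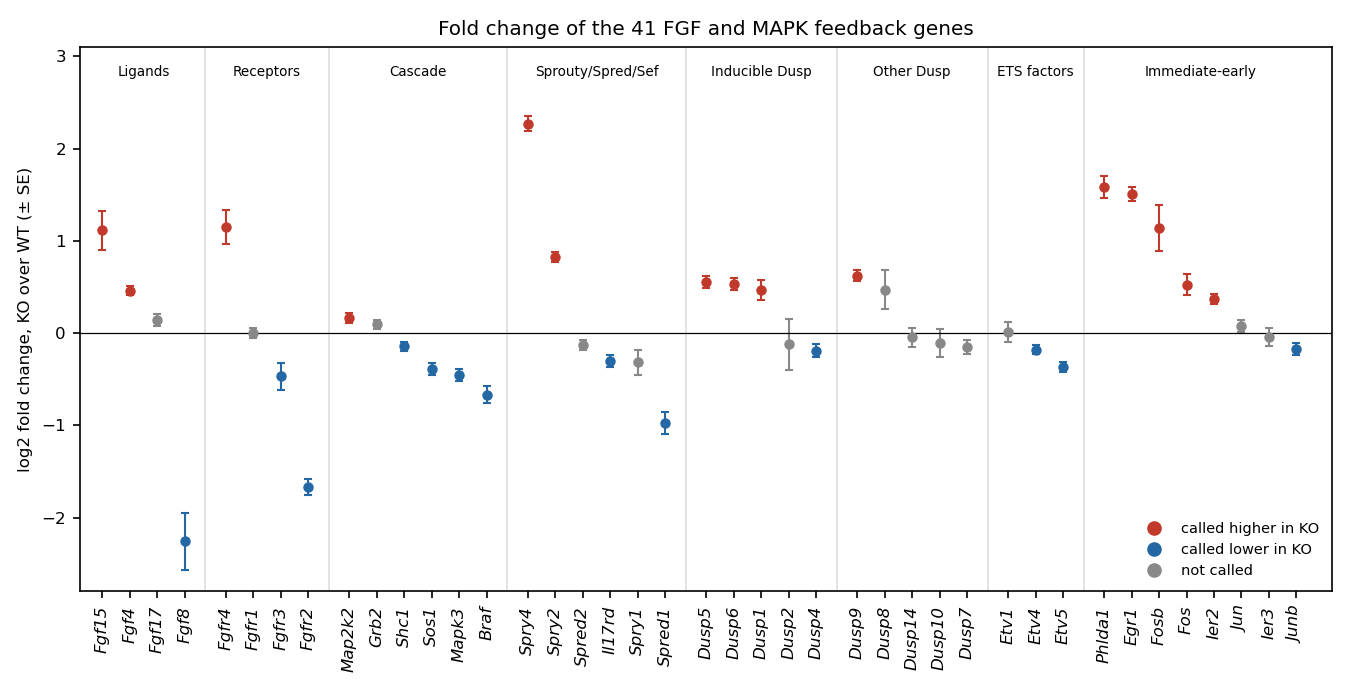
Log2 fold change of knockout over wild-type (y axis) of each of the 41 genes (x axis), grouped by role, with bars of ± 1 SE from the fit. Colours mark genes called higher or lower in the knockout and genes not called, and the values run from -2.26 for Fgf8 to 2.27 for Spry4. Fgf8 passed the count filter through its wild-type libraries, so its value is not read further.

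The ligand that dominates in pluripotent cells, Fgf4, was higher in the knockout lines, while the much scarcer Fgf8 was lower. Fgf4 (ENSMUSG00000050917, chr7:144847367-144865243, plus strand, mm10) had 331, 334 and 323 CPM in knockout replicates 1 to 3 and 235, 237 and 247 CPM in wild-type replicates 1 to 3. Every knockout line was above every wild-type line. Fgf4 differed by a log2 fold change of 0.46 (SE 0.0499, adjusted p = 3.2e-07, edgeR), or 1.38-fold. Per kilobase of exon the level of Fgf4 was 103.0 CPM in knockout and 74.9 CPM in wild-type lines, and the next ligand, Fgf17, stood at 24.3 CPM per kilobase in knockout and 21.7 in wild-type lines.

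Fgf8, a ligand of the gastrulating embryo, had 0.760, 0.357 and 0.245 CPM in knockout libraries (27 counts in all) and 2.25, 2.12 and 2.58 CPM in wild-type libraries (112 counts). The groups were far apart for their size, and both were low. The log2 fold change was -2.26 (SE 0.307, adjusted p = 6e-06, edgeR). Fgf8 was over the count filter level of 0.564 CPM in only 1 knockout library, against 3 wild-type libraries. It was tested because of its wild-type libraries, so its fold and adjusted p are not read further. Fgf15, an FGF that acts on other organs as a hormone in the adult, had 4.15, 4.57 and 4.29 CPM in knockout lines and 2.17, 0.875 and 2.45 CPM in wild-type lines. Knockout lines were the higher ones, and wild-type replicate 2, with 7 counts, was the lowest library. Fgf15 differed by a log2 fold change of 1.11 (SE 0.213, adjusted p = 0.00024, edgeR). An antisense transcript, Gm26793, shares 24.9% of the exon bases of Fgf15 and had 19 counts over all libraries, against 343 for Fgf15. Fgf17, of the Fgf8 subfamily, was not called at 40.96 ± 2.29 CPM in knockout and 36.7 ± 0.709 CPM in wild-type lines (log2 fold change 0.14, adjusted p = 0.08, edgeR).

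The 4 receptor genes did not move together. Fgfr1, the most abundant, was not called, the epithelial receptor Fgfr2 was lower in the knockout, and the scarce Fgfr4 was higher. Fgfr1 had 108, 105 and 104 CPM in knockout lines and 111, 104 and 101 CPM in wild-type lines, with means of 105.8 CPM in knockout and 105.7 CPM in wild-type lines, and the groups overlapped. Its log2 fold change was 0.00 (SE 0.0559, adjusted p = 0.98, edgeR). Fgfr2 had 11.04, 9.72 and 9.31 CPM in knockout lines and 32.7, 32.0 and 31.7 CPM in wild-type lines. Wild-type lines lay close together at more than the highest knockout value, with no overlap. The log2 fold change of Fgfr2 was -1.67 (SE 0.0864, adjusted p = 9.6e-12, edgeR), 3.18-fold lower in the knockout lines. Of the exon bases of Fgfr2, 3.04% are annotated on the same strand as exons of Ctbp2, a gene with 48510 counts over all libraries against 2113 for Fgfr2.

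Fgfr2 is also a receptor of trophoblast cells, and genes of a trophoblast list moved in both directions beside it. Of the 11 tested of its 12 genes, which include Fgfr2, 3 were higher and 5 lower, against 26.5% and 24.0% of all genes tested. Without Fgfr2 3 of 10 were higher and 4 lower, with a median log2 fold change of 0.29. Over the 9 genes of the list above the count filter level of 0.564 CPM in all 6 libraries, 2 were higher and 4 lower. The higher ones of the 11 were Hand1 (1.89), Ascl2 (0.49) and Bmp4 (0.48), named after their values were seen. Hand1 was over that level in only 2 wild-type libraries. The summed level was 238.5 to 244.5 CPM in knockout and 415.8 to 465.7 CPM in wild-type libraries. Its most abundant genes were the transcription factor gene Tfap2c at 83.5 ± 2.09 CPM in knockout and 163.6 ± 8.81 CPM in wild-type lines and the keratin gene Krt8 at 52.2 ± 4.01 CPM in knockout and 118.6 ± 12.8 CPM in wild-type lines, both called lower. No gene of that list was at 0 in every library. In these bulk libraries fewer cells of a type and less RNA per cell cannot be told apart, and the part of such cells in the Fgfr2 difference was not tested.

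Fgfr4 had 4.203, 5 and 4.90 CPM in knockout lines and 1.76, 2.25 and 2.51 CPM in wild-type lines, with no overlap. Fgfr4 differed by a log2 fold change of 1.15 (SE 0.184, adjusted p = 3.8e-05, edgeR), or 2.22-fold. Fgfr3 was lower at 4.38 ± 0.413 CPM in knockout and 6.14 ± 0.741 CPM in wild-type lines (log2 fold change -0.47, SE 0.144, adjusted p = 0.011, edgeR). That call did not hold without wild-type replicate 3 (adjusted p = 0.055) or in DESeq2 (0.067). Per kilobase of exon, receptor levels in knockout lines ran from 10.7 CPM for Fgfr1 through 1.33 for Fgfr4 and 0.970 for Fgfr2 to 0.612 for Fgfr3. In wild-type lines the order was Fgfr1 at 10.7, Fgfr2 at 3.11, Fgfr3 at 0.858 and Fgfr4 at 0.614 CPM per kilobase, so Fgfr4 stood above Fgfr2 and Fgfr3 in knockout lines and below both in wild-type lines.

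**Figure D2:**
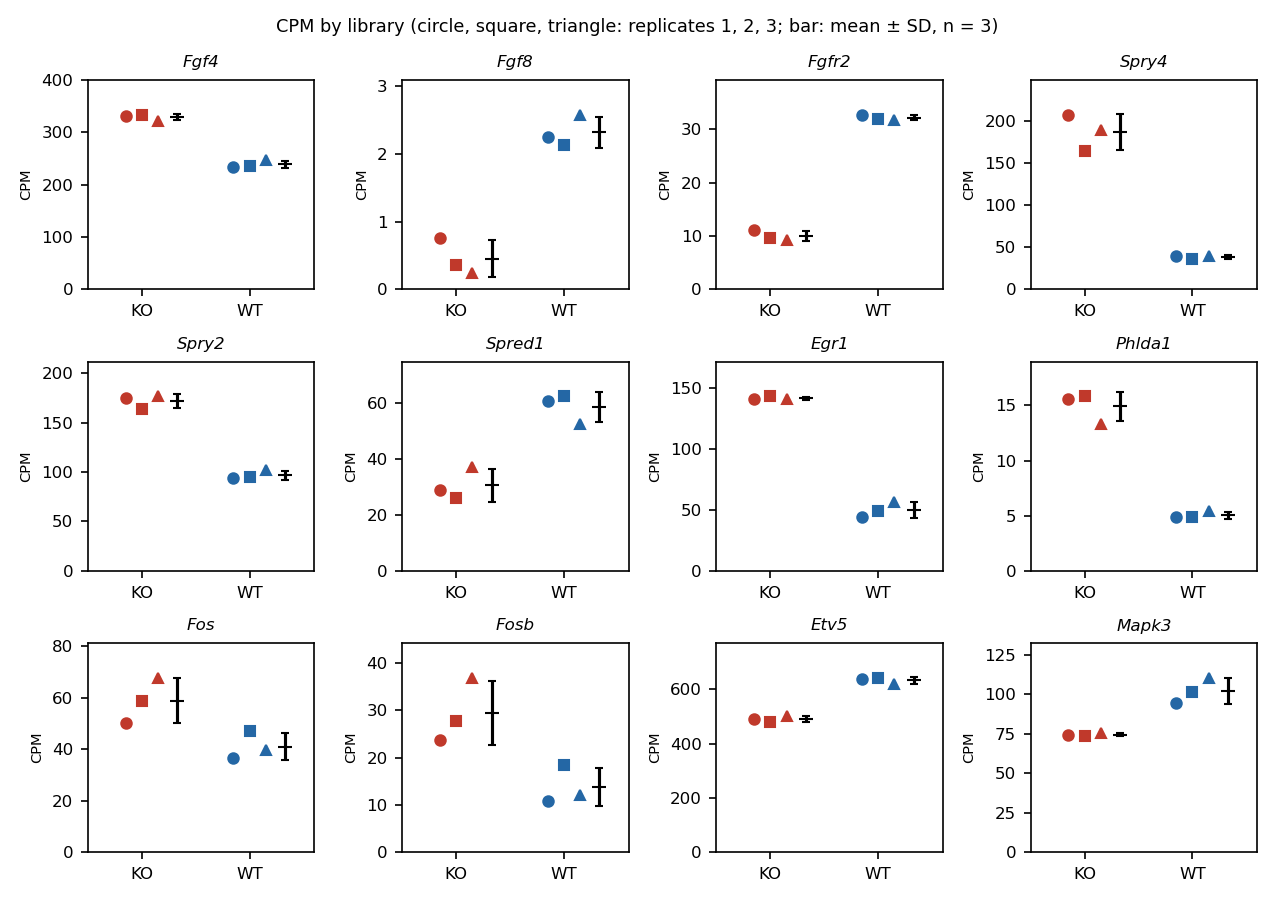
CPM (y axis, from 0) of 12 of the 41 genes in each library, knockout left of wild-type, with the symbol giving the replicate and the bar the mean ± SD over n = 3 lines. The groups are apart in every panel, narrowly for Fos and Fosb and by more than 2-fold on average for Fgfr2, Spry4, Egr1, Phlda1 and Fosb. Fgf8 passed the count filter through its wild-type libraries, so its distance is not read further.

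Genes of the cascade itself were mostly lower in the knockout, by small folds. Of the 6, Shc1, Sos1, Braf and Mapk3 were lower, Map2k2 was higher and Grb2 was not called, and the median log2 fold change was -0.27. Among all genes tested 24.0% were lower and 26.5% higher. Mapk3, which encodes the kinase ERK1, had 74.6, 73.4 and 75.3 CPM in knockout lines and 94.5, 102 and 111 CPM in wild-type lines. Knockout lines were nearly equal, and all were under the wild-type lines. Mapk3 differed by a log2 fold change of -0.46 (SE 0.0626, adjusted p = 6.5e-06, edgeR). Braf, the RAF kinase gene, had 25.7, 26.1 and 32.5 CPM in knockout lines and 47.4, 38.4 and 43.2 CPM in wild-type lines, and its log2 fold change of -0.67 (SE 0.0905, adjusted p = 9.9e-06, edgeR) was the largest of the 6. With GC trends removed Braf was at -0.44 and Mapk3 at -0.56, so Mapk3 was then the larger. Knockout replicate 3 and wild-type replicate 2, the shallowest library of each genotype, came nearest to the other genotype.

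Sos1, the exchange factor gene, was at 42.0 ± 1.04 CPM in knockout and 54.7 ± 2.12 CPM in wild-type lines (log2 fold change -0.39, SE 0.0626, adjusted p = 3.8e-05, edgeR), and its log2 fold change was -0.19 with GC trends removed. The adaptor gene Shc1 differed less, at 169.8 ± 4.33 CPM in knockout and 187.5 ± 4.16 CPM in wild-type lines (-0.14, SE 0.0504, adjusted p = 0.024, edgeR, and -0.23 with GC trends removed), and its call did not hold without knockout replicate 2 (adjusted p = 0.097) or wild-type replicates 2 or 3 (0.057 each). Map2k2, which encodes the kinase MEK2, had 189, 182 and 163 CPM in knockout lines and 159, 155 and 164 CPM in wild-type lines. The groups overlapped, since knockout replicate 3 lay under wild-type replicate 3. Its call as higher (log2 fold change 0.16, SE 0.0579, adjusted p = 0.025, edgeR) was lost without knockout replicates 1 or 2 (adjusted p = 0.14 and 0.082) or wild-type replicates 1 or 2 (0.075 and 0.11), and also without the count filter (0.056), after removal of GC trends (0.27) and in DESeq2 (0.077). The adaptor gene Grb2 stood at 118.6 ± 3.40 CPM in knockout and 111.2 ± 3.17 CPM in wild-type lines (log2 fold change 0.09, adjusted p = 0.16, edgeR).

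Feedback inhibitors of the Sprouty, Spred and Sef kinds split by gene, with Spry2 and Spry4 higher in the knockout, Spred1 and Il17rd lower, and Spry1 and Spred2 not called. Among all genes tested 26.5% were higher and 24.0% lower. Sprouty and Spred proteins restrain the signal upstream of RAF, and Sef, the product of Il17rd, acts at the receptor and on ERK. Spry4 (ENSMUSG00000024427, chr18:38586247-38601415, minus strand, mm10) had 207, 165 and 190 CPM in knockout lines and 39.9, 36.0 and 39.7 CPM in wild-type lines. The lowest knockout line stood far above the highest wild-type line. The log2 fold change of Spry4 was 2.27 (SE 0.0802, adjusted p = 2.5e-12, edgeR), or 4.81-fold, the largest increase of the 41 genes.

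Spry2 had 175, 164 and 176 CPM in knockout lines and 93.5, 94.6 and 102 CPM in wild-type lines, again with no overlap. Spry2 differed by a log2 fold change of 0.83 (SE 0.0559, adjusted p = 4.3e-10, edgeR), or 1.77-fold. Spry1 went the other way without being called, at 12.1, 15.0 and 16.2 CPM in knockout lines and 14.5, 20.7 and 19.4 CPM in wild-type lines, where the groups overlapped through wild-type replicate 1. Its log2 fold change was -0.32 (SE 0.139, adjusted p = 0.074, edgeR), and without wild-type replicate 1 it was -0.49 and called (adjusted p = 0.0034). The order of the Sprouty genes per kilobase of exon was Spry2 at 82.3, Spry4 at 39.3 and Spry1 at 4.96 CPM in knockout lines, and Spry2 at 46.3, Spry4 at 8.10 and Spry1 at 6.27 CPM in wild-type lines.

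Spred1 had 28.8, 25.9 and 37.1 CPM in knockout lines and 60.6, 62.2 and 52.5 CPM in wild-type lines. Every knockout line was the lower, and replicate 3 of each genotype lay nearest to the other. Spred1 differed by a log2 fold change of -0.98 (SE 0.118, adjusted p = 6.7e-05, edgeR), 1.97-fold lower in the knockout lines. With GC trends removed Spred1 was at -0.75. Il17rd was lower by less, at 47.6 ± 2.06 CPM in knockout and 58.8 ± 3.22 CPM in wild-type lines (-0.30, SE 0.0648, adjusted p = 0.00065, edgeR). Spred2 was not called at 78.9 ± 1.502 CPM in knockout and 86.5 ± 2.99 CPM in wild-type lines (-0.13, adjusted p = 0.06, edgeR), although its groups did not overlap, and it was called lower without knockout replicate 3 (adjusted p = 0.049). The summed level of the 6 inhibitor genes was 492.1 to 550.0 CPM in knockout and 347.4 to 362.1 CPM in wild-type libraries. Of the 6, Spry4 and Spry2 were the ones called higher.

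Fibroblast genes, which irradiated feeders or cells not fully reprogrammed would bring, were mostly lower in the knockout libraries, as Spred1 was. Of 17 tested genes of an 18-gene fibroblast list, 3 were higher and 12 lower, against 26.5% and 24.0% of all genes tested. Over the 16 above the count filter level in all 6 libraries, 3 were higher and 11 lower. The summed level of the list was 965.1 to 1128 CPM in knockout and 1179 to 1532 CPM in wild-type libraries. The collagen gene Col1a1 stood at 126.6 ± 18.3 CPM in knockout and 253.4 ± 48.6 CPM in wild-type lines, the collagen gene Col1a2 at 152.8 ± 18.9 CPM in knockout and 165.5 ± 31.4 CPM in wild-type lines, and Vim, which pluripotent cells also express, at 443.2 ± 39.9 CPM in knockout and 328.5 ± 49.6 CPM in wild-type lines. Vim was called higher and Col1a1 lower, but Vim lost its call without knockout replicates 1 or 2 (adjusted p = 0.077 and 0.093) and Col1a1 without knockout replicate 2 (0.059), and Col1a2 was called lower without wild-type replicate 3 (0.02). Lum had 0 counts in knockout and 3 counts in wild-type libraries. The part of fibroblasts in the values of the 41 genes was not tested.

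Phosphatases that ERK signalling induces were higher in 3 of 5 cases and lower in 1, against 26.5% higher and 24.0% lower over all genes tested. These enzymes remove phosphate from MAP kinases, Dusp6 in the cytoplasm and specific for ERK, Dusp5 in the nucleus and also specific for ERK, and Dusp1, Dusp2 and Dusp4 in the nucleus. Dusp6 had 92.2, 79.9 and 89.7 CPM in knockout lines and 56.6, 62.6 and 62.4 CPM in wild-type lines. Dusp5 had 55.7, 50.8 and 51.0 CPM in knockout lines and 35.3, 37.4 and 35.5 CPM in wild-type lines. Both genes were apart with no overlap and by nearly the same fold, with log2 fold changes of 0.53 (SE 0.0677, adjusted p = 2.8e-06, edgeR) for Dusp6 and 0.55 (SE 0.0664, adjusted p = 1.3e-06) for Dusp5. Of the exon bases of Dusp5, 22.1% lie opposite an annotated antisense transcript that has no row in the table.

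Dusp1 had 106, 112 and 125 CPM in knockout lines and 71.9, 78.9 and 96.4 CPM in wild-type lines, with no overlap, although wild-type replicate 3 came near knockout replicate 1. Dusp1 differed by a log2 fold change of 0.47 (SE 0.111, adjusted p = 0.0076, edgeR). Dusp4 was lower by a small fold, at 39.5 ± 1.55 CPM in knockout and 45.4 ± 4.08 CPM in wild-type lines (-0.19, SE 0.0730, adjusted p = 0.036, edgeR). The call of Dusp4 was lost without any 1 of knockout replicates 1, 2 and 3 (adjusted p = 0.052, 0.1 and 0.058), without wild-type replicates 2 or 3 (0.061 and 0.19), in DESeq2 (0.091) and in limma voom (0.055), and Dusp4 was at -0.29 with GC trends removed. Dusp2 was scarce, at 1.10 ± 0.221 CPM in knockout and 1.18 ± 0.348 CPM in wild-type lines, and was not called (log2 fold change -0.12, adjusted p = 0.74, edgeR).

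Among the other phosphatases, Dusp9 was higher and Dusp7, Dusp8, Dusp10 and Dusp14 were not called. Dusp9, a cytoplasmic phosphatase that acts on ERK and is known for its high level in mouse embryonic stem cells with 2 active X chromosomes, had 243, 226 and 251 CPM in knockout lines and 156, 163 and 149 CPM in wild-type lines. Every knockout line was above every wild-type line, and the log2 fold change was 0.62 (SE 0.0555, adjusted p = 2.2e-08, edgeR). Dusp9 is X-linked (chrX:73639419-73643514, plus strand, mm10). Of 327 X-linked genes at a mean of 5 CPM or more, 202 (61.8%) were called higher with a median log2 fold change of 0.37, against 24.5% of 9945 autosomal genes with a median of -0.03. Within 2.5 Mb of Dusp9, 42 of 48 such genes (87.5%) were called higher, and their median was 0.79. Xist, which coats an inactive X chromosome, was low in both genotypes, at 4.89 ± 0.748 CPM in knockout and 3.06 ± 0.0819 CPM in wild-type lines. For Dusp9 the loss of the microRNA and the sex-chromosome make-up of the lines cannot be told apart.

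**Figure D3:**
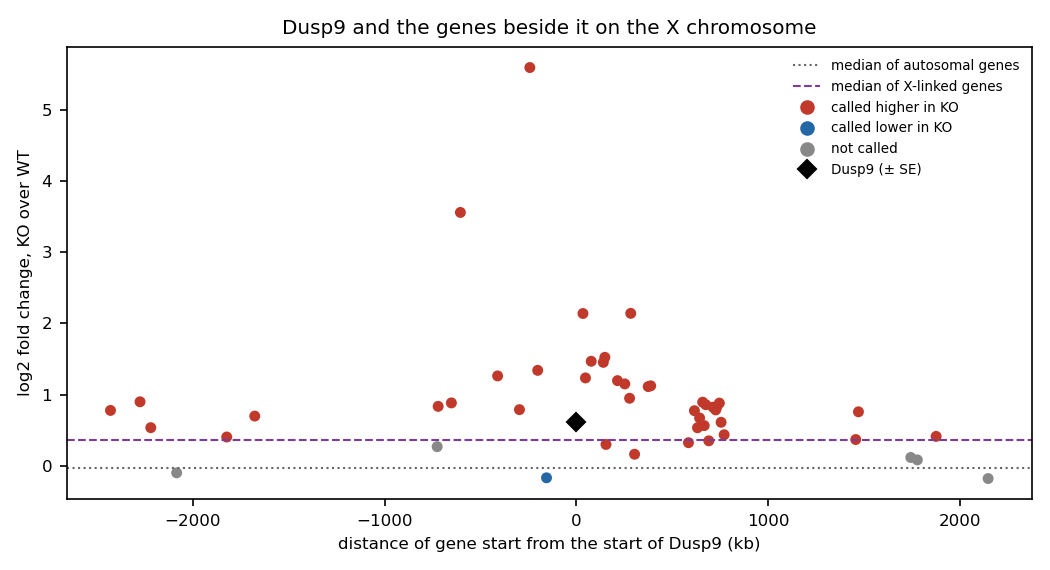
Log2 fold change of knockout over wild-type (y axis) of Dusp9 and of the 48 X-linked genes at a mean of 5 CPM or more within 2.5 Mb of it, by distance of the gene start from that of Dusp9 in kb (x axis). Dusp9, at 0.62, lies under the median of its neighbours of 0.79 and above the medians of X-linked genes (0.37, dashed) and autosomal genes (-0.03, dotted), and 42 of the 48 neighbours are called higher.

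Dusp8, a phosphatase of stress kinases, had 5.93, 6.11 and 6.49 CPM in knockout lines and 3.36, 3.37 and 6.44 CPM in wild-type lines. Wild-type replicate 3 stood with the knockout lines and apart from the other wild-type lines. With it the log2 fold change was 0.47 (SE 0.209, adjusted p = 0.075, edgeR), and without it 0.85 and called (adjusted p = 0.00038). Dusp7, an ERK phosphatase, was at 25.7 ± 0.751 CPM in knockout and 28.6 ± 1.55 CPM in wild-type lines and not called (-0.15, adjusted p = 0.091, edgeR), and without wild-type replicate 3 it was called lower (0.042). Dusp10, a phosphatase of p38 and JNK, was at 4.66 ± 0.780 CPM in knockout and 5.24 ± 0.562 CPM in wild-type lines, and Dusp14 was at 12.1 ± 0.691 CPM in knockout and 12.5 ± 0.843 CPM in wild-type lines. Neither was called (adjusted p = 0.59 for Dusp10 and 0.75 for Dusp14, edgeR), and the groups overlapped in both.

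ETS factors of the Pea3 group, which are standard FGF targets, did not follow Spry4 and Dusp6. Etv5 and Etv4 were lower in the knockout, and Etv1 was not called. Etv5 (chr16:22381309-22439719, minus strand, mm10) had 491, 480 and 504 CPM in knockout lines and 638, 642 and 618 CPM in wild-type lines. The groups were tight and apart, with a log2 fold change of -0.37 (SE 0.0514, adjusted p = 8.6e-06, edgeR). Etv4 had 148, 156 and 149 CPM in knockout lines and 171, 173 and 171 CPM in wild-type lines, with a log2 fold change of -0.18 (SE 0.0504, adjusted p = 0.0056, edgeR). With GC trends removed Etv4 was at -0.28. Etv1 was low in both, at 12.2 ± 1.33 CPM in knockout and 11.7 ± 0.902 CPM in wild-type lines (0.01, adjusted p = 0.95, edgeR). Per kilobase of exon Etv5 was at 119.7 CPM in knockout and 154.2 CPM in wild-type lines, and Ier2 was at 158.7 CPM in knockout and 122.7 CPM in wild-type lines. With Fgf4, described above, these 3 were the most abundant of the 41 genes in both genotypes.

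Immediate-early genes, which are transcribed within minutes of ERK activation without new protein, were mostly higher in the knockout. Of 8, Egr1, Phlda1, Fosb, Fos and Ier2 were higher, Junb was lower, and Jun and Ier3 were not called. Among all genes tested 26.5% were higher and 24.0% lower. Egr1 (ENSMUSG00000038418, chr18:34859823-34864984, plus strand, mm10), a zinc-finger factor, had 141, 143 and 141 CPM in knockout lines and 44.1, 49.4 and 56.7 CPM in wild-type lines. Knockout lines were nearly equal, and the wild-type lines all lay under the lowest of them. The log2 fold change of Egr1 was 1.5 (SE 0.0742, adjusted p = 2e-11, edgeR), or 2.84-fold. Phlda1, a pleckstrin-homology-like domain gene, had 15.6, 15.8 and 13.4 CPM in knockout lines and 4.88, 4.87 and 5.41 CPM in wild-type lines, and its log2 fold change was 1.58 (SE 0.118, adjusted p = 1.7e-09, edgeR), or 2.99-fold. The groups did not overlap, and an antisense transcript that shares 33.0% of the exon bases of Phlda1 had 0 counts.

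Fos, a partner of Jun in the AP-1 factor, had 50.2, 58.8 and 67.7 CPM in knockout lines and 36.7, 47.0 and 39.7 CPM in wild-type lines. Its relative Fosb had 23.8, 27.7 and 36.9 CPM in knockout lines and 10.9, 18.4 and 12.1 CPM in wild-type lines. In both genes the groups were apart by a small gap, and within each genotype the highest value came from the shallowest library, knockout replicate 3 and wild-type replicate 2. The log2 fold change was 0.53 for Fos (SE 0.118, adjusted p = 0.0045, edgeR) and 1.14 for Fosb (SE 0.253, adjusted p = 0.015). The call of Fosb was lost without knockout replicate 2 (adjusted p = 0.052) or wild-type replicate 3 (0.068).

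Ier2 had 258, 235 and 232 CPM in knockout lines and 187, 182 and 192 CPM in wild-type lines, apart with no overlap, and its log2 fold change was 0.37 (SE 0.0544, adjusted p = 1.3e-05, edgeR). Jun, at 58.9 ± 3.51 CPM in knockout and 56.1 ± 3.27 CPM in wild-type lines, and Ier3, a survival gene at 16.7 ± 0.328 CPM in knockout and 17.0 ± 2.45 CPM in wild-type lines, overlapped between genotypes and were not called (adjusted p = 0.35 for Jun and 0.73 for Ier3, edgeR). Junb had 77.2, 84.0 and 81.8 CPM in knockout lines and 83.9, 94.0 and 97.9 CPM in wild-type lines, and wild-type replicate 1 overlapped the knockout lines. Its log2 fold change was -0.18 (SE 0.0649, adjusted p = 0.029, edgeR), and the call was lost without knockout replicate 1 (adjusted p = 0.14), wild-type replicate 2 (0.087) or wild-type replicate 3 (0.12) and in DESeq2 (0.056), while with GC trends removed Junb was at -0.30. Of the exon bases of Junb, 7.52% lie opposite exons of Prdx2, which had 32835 counts against 8866 for Junb, and the sources used here do not say how strand entered the counting.

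Handling of cells can also raise immediate-early transcripts. A list of 10 dissociation and heat stress genes had 4 higher, 4 lower and 2 not called, against 26.5% higher and 24.0% lower over all genes tested. The summed level of the list was 1107 to 1149 CPM in knockout and 1179 to 1210 CPM in wild-type libraries. Its most abundant genes were the heat shock gene Hspb1, higher at 447.0 ± 13.1 CPM in knockout and 356.5 ± 30.4 CPM in wild-type lines, the chaperone gene Hsph1, lower at 257.1 ± 7.82 CPM in knockout and 326.8 ± 33.8 CPM in wild-type lines, and the cytokine inhibitor gene Socs3, lower at 137.9 ± 7.04 CPM in knockout and 228.3 ± 14.1 CPM in wild-type lines. The part of handling in the immediate-early values was not tested.

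Promoters were searched for motifs of the factors that relay ERK and cAMP signals. RefSeq (GRCm38.p6) gave a promoter for 29 of the 41 genes, and the 250 bases before the start were read on both strands. No promoter was given for Fgf8, Fgf15, Fgf17, Fgfr1, Mapk3, Spry4, Dusp4, Dusp9, Etv4, Egr1, Ier2 or Phlda1, so these were not searched. Motifs further from the start were not looked for in any gene, so a motif not found here can still lie outside the window. The cAMP response element TGACGTCA occurred in 3 of the 29 (Braf, Dusp1 and Dusp8), against 1.77% of 27025 genes. The CArG box, the site of serum response factor, occurred in Dusp5, against 1.62% of genes, and the AP-1 motif TGANTCA in Shc1, against 7.82%. The ETS motif CCGGAAG was in none of the 29, against 7.83% of genes. Both Dusp5 and Dusp1, induced phosphatase genes, were higher in the knockout, Dusp8 had the split wild-type lines, and Braf was lower, so their promoters are shown with the motif in capitals and no motif overlaps another:

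Dusp5, chr19:53528895-53529144, plus strand, 2 adjacent CArG boxes: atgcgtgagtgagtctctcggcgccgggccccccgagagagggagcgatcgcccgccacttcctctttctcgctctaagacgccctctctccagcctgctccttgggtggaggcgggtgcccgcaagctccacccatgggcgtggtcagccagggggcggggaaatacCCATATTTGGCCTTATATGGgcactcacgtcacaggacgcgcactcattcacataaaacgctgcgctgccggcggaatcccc

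Dusp1, chr17:26508473-26508722, minus strand, 1 cAMP response element: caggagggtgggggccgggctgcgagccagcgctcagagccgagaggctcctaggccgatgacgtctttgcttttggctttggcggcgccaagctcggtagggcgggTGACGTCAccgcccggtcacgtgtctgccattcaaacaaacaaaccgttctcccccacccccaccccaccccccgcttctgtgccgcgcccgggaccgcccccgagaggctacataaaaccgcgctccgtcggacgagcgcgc

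Dusp8, chr7:142095285-142095534, minus strand, 2 cAMP response elements: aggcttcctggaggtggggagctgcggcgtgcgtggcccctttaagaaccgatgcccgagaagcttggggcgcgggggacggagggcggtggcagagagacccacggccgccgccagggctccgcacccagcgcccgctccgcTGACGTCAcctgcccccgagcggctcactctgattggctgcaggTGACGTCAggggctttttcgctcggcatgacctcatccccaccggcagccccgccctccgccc

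Braf, chr6:39725464-39725713, minus strand, 2 cAMP response elements: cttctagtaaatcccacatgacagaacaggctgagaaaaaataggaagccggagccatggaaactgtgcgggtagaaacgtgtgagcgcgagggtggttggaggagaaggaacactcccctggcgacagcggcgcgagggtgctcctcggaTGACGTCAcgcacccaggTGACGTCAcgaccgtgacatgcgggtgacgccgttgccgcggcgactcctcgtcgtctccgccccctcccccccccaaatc

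The CArG boxes of Dusp5 begin 82 and 72 bases before the start. The cAMP response elements begin 143 bases before the start in Dusp1, 107 and 63 in Dusp8, and 99 and 81 in Braf. Genes with the same motif thus stood on both sides of 0, with log2 fold changes of 0.47 in Dusp1 and -0.67 in Braf. These letters describe the windows and were not tested as sites.

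Cascade and output genes were set side by side. Of 22 genes that ERK signalling induces, the inhibitors, the 5 induced phosphatases, the ETS factors and the immediate-early genes, 10 were higher in the knockout, 6 lower and 6 not called. Of the 6 cascade genes 1 was higher, 4 lower and 1 not called. Over all genes tested 26.5% were higher and 24.0% lower. The median log2 fold change was 0.04 for output genes and -0.27 for cascade genes, against 0.01 for all genes tested, and output genes ran from -0.98 in Spred1 to 2.27 in Spry4 while cascade genes ran from -0.67 to 0.16. The classes differ in size, and the 28 other RAS to ERK cascade genes described next ran from -0.86 to 0.83, with a median absolute log2 fold change of 0.35 against 0.37 for the output genes. Without wild-type replicate 1 the output median was 0.13, and without knockout replicates 1 or 2 or wild-type replicates 1 or 2 no cascade gene was called higher. The summed level of output genes was 2066 to 2163 CPM in knockout and 1815 to 1891 CPM in wild-type libraries, and that of cascade genes was 603.4 to 620.6 CPM in knockout and 645.7 to 679.7 CPM in wild-type libraries. With the other 5 phosphatases added, the 27 genes had 11 higher, 6 lower and 10 not called. The difference between the classes was not tested, since genes are not replicates.

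**Figure D4:**
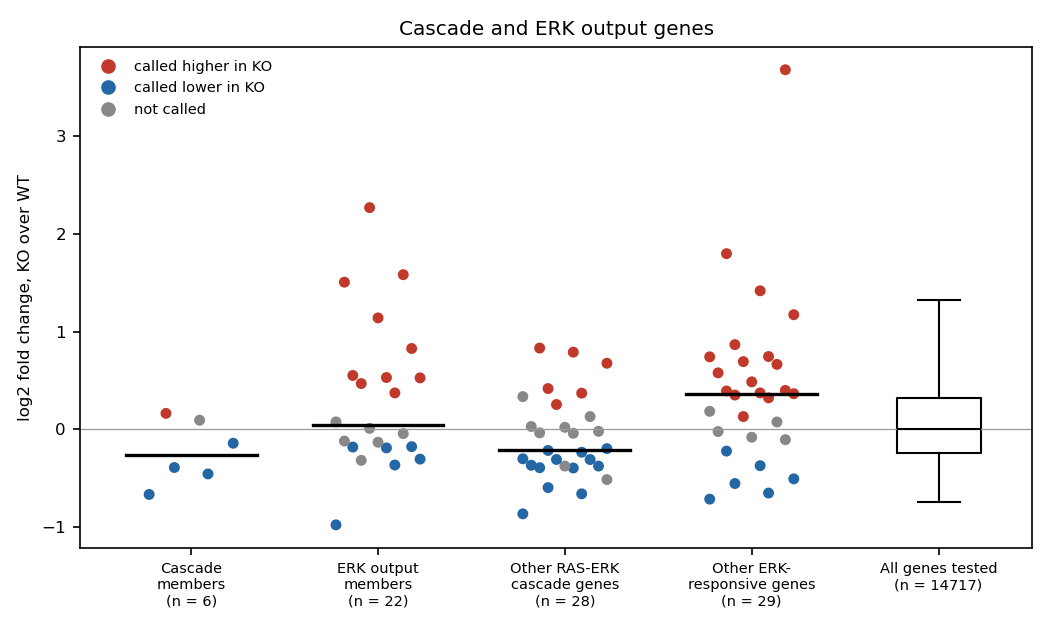
Log2 fold change of knockout over wild-type (y axis) of the cascade and ERK output genes among the 41 and of the 2 corresponding lists of other genes, with each point a gene and the line the median. The box gives the quartiles and the whiskers the 5th and 95th percentiles of all 14717 genes tested. Cascade genes lie mostly under 0, and ERK output genes run from -0.98 to 2.27 with a median of 0.04. Other ERK-responsive genes run from -0.71 to 1.80 without the topmost point, Egr3, which passed the count filter through its knockout libraries alone.

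Other genes of the pathway, taken from lists by role, were read in the same way, beside 26.5% higher and 24.0% lower over all genes tested. These lists, too, were chosen with earlier results of these data known. Of 28 other RAS to ERK cascade genes, 6 were higher, 13 lower and 9 not called, with a median log2 fold change of -0.21. The RAS inactivator gene Rasa1 (8.09 ± 0.892 CPM in knockout and 13.0 ± 0.747 CPM in wild-type lines) and the scaffold gene Cnksr1 (3.03 ± 0.432 CPM in knockout and 5.60 ± 0.637 CPM in wild-type lines) were lower. The RAS relative Mras (57.4 ± 2.46 CPM in knockout and 33.2 ± 1.69 CPM in wild-type lines), the scaffold gene Ksr1 (28.4 ± 1.48 CPM in knockout and 15.9 ± 0.914 CPM in wild-type lines) and the X-linked RAF gene Araf (94.3 ± 4.196 CPM in knockout and 58.8 ± 6.42 CPM in wild-type lines) were higher. Without X-linked genes 4 of 26 were higher and 13 lower.

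Of 29 other ERK-responsive genes tested, 18 were higher, 6 lower and 5 not called, with a median log2 fold change of 0.36. Egr3, a relative of Egr1, had 6.23, 4.93 and 4.90 CPM in knockout lines and 0.492, 0.2499 and 0.386 CPM in wild-type lines, where it had 12, 2 and 6 counts. All wild-type values were near the floor and under the filter level of 0.564 CPM, so Egr3 was tested only because of its knockout libraries and had to differ, and its fold is not read further. Over the 28 genes of the list above that level in all 6 libraries, 17 were higher and 6 lower. The AP-1 gene Fosl1 had 18.2, 17.8 and 20.8 CPM in knockout lines and 6.31, 7.25 and 7.73 CPM in wild-type lines, with a log2 fold change of 1.42 (SE 0.112, adjusted p = 3.7e-09, edgeR). The ternary complex factor gene Elk1, at 54.9 ± 1.06 CPM in knockout and 34.1 ± 0.334 CPM in wild-type lines, was also higher and is X-linked. The cyclin gene Ccnd1 (164.2 ± 5.28 CPM in knockout and 233.7 ± 7.86 CPM in wild-type lines), the AP-1 gene Fosl2 (12.1 ± 0.443 CPM in knockout and 18.8 ± 0.997 CPM in wild-type lines) and the RNA decay factor gene Zfp36 (39.0 ± 3.26 CPM in knockout and 56.7 ± 6.53 CPM in wild-type lines) were lower. Without Elk1 the counts were also 17 higher and 6 lower of 28.

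Of 9 other FGF ligands tested of 18, 3 were higher, 0 lower and 6 not called, and all were scarce, with a summed level of 22.5 to 25.0 CPM in knockout and 15.1 to 16.0 CPM in wild-type libraries. Fgf1 had 5.57, 5.18 and 6.25 CPM in knockout lines and 0.983, 0.875 and 1.03 CPM in wild-type lines, apart with no overlap (log2 fold change 2.49, SE 0.196, adjusted p = 3.7e-09, edgeR). Fgf3 was at 2.63 ± 0.169 CPM in knockout and 1.45 ± 0.289 CPM in wild-type lines, and Fgf7 at 1.52 ± 0.580 CPM in knockout and 0.850 ± 0.130 CPM in wild-type lines. The call of Fgf7 was lost without knockout replicate 2 (log2 fold change 0.57, adjusted p = 0.19) or wild-type replicate 1 (0.056), and without wild-type replicate 1 the list had 1 gene called lower.

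Of 13 receptor partners and adaptors tested, 3 were higher and 5 lower. The heparan sulfate proteoglycan gene Gpc4, X-linked, was at 148.7 ± 3.79 CPM in knockout and 82.1 ± 7.86 CPM in wild-type lines (log2 fold change 0.86, SE 0.0644, adjusted p = 2e-09, edgeR). The proteoglycan gene Sdc1 was higher by 0.21, but its call was lost with GC trends removed (0.11, adjusted p = 0.13, edgeR). The docking protein gene Gab1 (190.2 ± 12.2 CPM in knockout and 254.5 ± 5.74 CPM in wild-type lines), the heparan sulfate polymerase gene Ext1 (57.3 ± 5.47 CPM in knockout and 73.7 ± 0.119 CPM in wild-type lines) and the receptor-binding gene Flrt3 (5.61 ± 0.567 CPM in knockout and 8.81 ± 0.444 CPM in wild-type lines) were lower. Without knockout replicate 2 the list had 3 genes called lower, and the call of the decoy receptor gene Fgfrl1 as higher was lost (adjusted p = 0.053), as it was without wild-type replicate 2 (0.059).

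Of 16 other feedback and phosphatase genes tested, 6 were higher and 2 lower, all by less than 1.5-fold. The ETS repressor gene Erf (log2 fold change 0.26), the phosphatase gene Ptpn6 (0.31) and the receptor inhibitor gene Lrig1 (0.25) were higher, and the inhibitor genes Spred3 (-0.39) and Errfi1 (-0.22) were lower. Without knockout replicate 1 the list had 3 higher and 1 lower, and without knockout replicate 2 or wild-type replicate 1 it had 1 lower. The call of Lrig1 was lost without knockout replicate 1 (adjusted p = 0.053) or wild-type replicate 1 (0.055), that of Spred3 without knockout replicate 2 (0.067), and that of Errfi1 without knockout replicate 1 (0.2) or wild-type replicates 1 or 2 (0.085 and 0.073). Of 16 genes of the JNK and p38 branches tested, 3 were higher and 5 lower. The p38 genes Mapk13 (19.8 ± 0.997 CPM in knockout and 40.96 ± 2.26 CPM in wild-type lines), Mapk12 (5.75 ± 1.43 CPM in knockout and 10.9 ± 0.562 CPM in wild-type lines) and Mapk11 (5.66 ± 0.663 CPM in knockout and 9.90 ± 0.402 CPM in wild-type lines) were lower. The kinase genes Map3k5, Map2k6 and Map2k3 were higher by 0.81, 0.52 and 0.25 on the log2 scale. The count of lower genes of this list was 3 without knockout replicates 1 or 2 or wild-type replicates 1 or 2. Over the 111 tested genes of these lists 39 were higher (35.1%), 31 lower (27.9%) and 41 not called. Over all genes tested 26.5% were higher and 24.0% lower.

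Genes of lineages that FGF signalling bears on were counted beside all genes tested, of which 26.5% were higher and 24.0% lower. Of 12 tested primitive endoderm genes 8 were higher and 1 lower. Over the 11 of them above the filter level of 0.564 CPM in all 6 libraries, 7 were higher and 1 lower. The summed level of the list was 1801 to 1877 CPM in knockout and 1485 to 1657 CPM in wild-type libraries. Among them the matrix gene Sparc was at 542.0 ± 10.04 CPM in knockout and 369.5 ± 4.85 CPM in wild-type lines and the laminin gene Lamc1 at 653.6 ± 26.7 CPM in knockout and 543.1 ± 39.4 CPM in wild-type lines, while the laminin gene Lamb1 was lower at 240.9 ± 6.90 CPM in knockout and 311.1 ± 19.7 CPM in wild-type lines. Of 8 tested primitive streak and mesoderm genes, a list that holds Fgf8 and Fgf17, 1 was higher and 4 lower (0 higher without knockout replicate 2 or wild-type replicates 1 or 3). Over the 7 above the filter level in all 6 libraries, which leave out Fgf8, 1 was higher and 3 lower. The streak factor gene T was at 1.31 ± 0.471 CPM in knockout and 7.19 ± 1.68 CPM in wild-type lines. Of 8 tested neural genes, a list that holds Fgf15, 4 were higher and 4 lower (2 higher without knockout replicate 1), with Nes at 54.6 ± 5.68 CPM in knockout and 94.0 ± 2.17 CPM in wild-type lines. Of 10 pluripotency genes, a list that holds Fgf4, 8 were higher and 1 lower, with a summed level of 8250 to 8751 CPM in knockout and 6824 to 6875 CPM in wild-type libraries. That list also holds Pou5f1 and Sox2, whose counts may include retroviral transcripts. No gene of these 4 lists was at 0 in every library, and the part of other cell types in the values of the 41 genes was not tested.

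Variation between lines of a genotype was close to that of other genes. Over the 33 of the 41 genes with a mean of at least 10 CPM, the median coefficient of variation was 5.32% in knockout and 5.48% in wild-type lines, against 5.48% in knockout and 5.05% in wild-type lines over all 8741 such genes. Above 20% stood Fgf8 in the knockout (59.6%), Fgf15 and Dusp8 in the wild-type (45.8% and 40.4%), Fosb in both (22.8% in knockout and 29.2% in wild-type lines) and Dusp2 in both (20.03% in knockout and 29.6% in wild-type lines). At the other end Egr1 varied by 0.966% among knockout lines and by 12.7% among wild-type lines.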

How the data were processed

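The labels give the genotype and the replicate number of each of the 6 iPSC libraries. Raw, unnormalized counts were deposited by the authors, and 902 rows of their table are repeat families, left out of library sizes and tests. Alignment to mm10 and counting used TopHat2 2.0.11 and featureCounts 1.4.5, per the submitters' processing notes, and the sources used here give no counting options. A further table was not used because its 6 columns matched no label. The members and lists were chosen with earlier results of these data known.

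Symbols, exon lengths and 3′ UTRs came from GENCODE M21, which named 40254 of 41388 gene rows. The test was that of edgeR 4.0.16 under R 4.3.3 (filterByExpr, TMM, glmQLFit with robust = TRUE, two-sided glmQLFTest, no covariate), and the SE is the log2 fold change over the square root of F. The steps were tested on simulated counts. Every pair of libraries within a genotype differed by more than counting noise (chi-square per degree of freedom 2.25 to 20.01). Which lines share an embryo is not given, so p-values measure the spread between these lines. Named genes were the 41, up to 3 called genes per direction and pathway list with the smallest p at 1 CPM or more, and up to 3 most abundant genes per marker list. 1 gene that this rule names is not reported here. Lum, Hand1, Ascl2, Bmp4 and the sex-linked genes were named after their values were seen. The alternatives were other scalings, filters and tests (DESeq2 1.42.0, limma 3.58.1), GC trend removal, the replicate block and each library left out. Counts without Dusp9, Fgf8, Fgfr2, other X-linked genes or genes under the filter level in some libraries were added after seeing the data.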

Additional observations from a re-analysis of the deposited data

How the results depend on the processing

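Of the 41 genes, 31 kept their call under all 16 alternatives, 6 of them with a change of sign while not called, and 10 changed call under at least 1. The count of the 41 called higher ranged from 13 to 16 and that called lower from 10 to 16. Over all genes, 3064 to 4168 were called higher and 2837 to 3948 lower. The count of cascade genes called higher, 1, was 0 with no count filter, with GC trends removed, with the replicate block and GC trends removed together and in DESeq2, and 0 to 1 when each library was left out. The cascade median was -0.21 with GC trends removed, with and without the block, and -0.29 to -0.26 when each library was left out. The output median was 0.0039 to 0.1326 when each library was left out. Outside that, calls of single genes changed by setting: Fosb lost its call with the block and GC trends removed (adjusted p = 0.052), Spry1 gained one without the filter (0.0033), with GC trends removed (0.044) and with the block and GC trends removed (5.5e-05), Spred2 without the filter (0.048), with at least 1 CPM (0.048), with GC trends removed (0.023) and with both (0.012), Dusp7 with GC trends removed (0.0064) and with both (0.0011), and Dusp8 without the filter (0.019), in limma voom (0.033) and with both (0.011). Among the lists, receptor partners had 1 higher and 3 lower with GC trends removed and 3 lower in DESeq2, other feedback genes had 2 higher and 1 lower in DESeq2 and 1 lower with GC trends removed, the JNK and p38 list had 3 lower with GC trends removed and in DESeq2, the streak list had 0 higher with at least 1 CPM, with the block, with GC trends removed and in DESeq2, the neural list had 2 higher with GC trends removed, and the pluripotency list had 2 lower with the block or with GC trends removed. The cause was not tested.

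The sign changed in 6 genes that were not called in the settings concerned. Fgfr1 was -0.0039 with DESeq2 size factors, -0.0044 with library totals only, -0.021 without the filter, -0.0028 with at least 1 CPM, -0.087 with GC trends removed, -0.0882 with the block and GC trends removed, -0.0079 in DESeq2, and -0.0375 to 0.0411 when each library was left out. Etv1 was -0.0158 without the filter, -0.015 in limma voom, and -0.0554 to 0.067 when each library was left out. Jun was -0.0188 with GC trends removed and -0.0175 with the block as well. When each library was left out, Dusp2 ran from -0.2496 to 0.1982, Dusp14 from -0.1054 to 0.0159 and Ier3 from -0.1227 to 0.0351.

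The replicate block was tried because both genotypes number their lines 1 to 3. Deviations of same-numbered libraries correlated at 0.246, 0.003 and 0.238 over 10314 genes, and those of differently numbered libraries at -0.278 to 0.14. Replicates 1 and 3 thus correlated most with the library of their own number, and replicate 2 did not. Whether the numbers pair the lines is not given by the labels, so the block was kept as an alternative only. With the block alone 16 of the 41 were higher and 14 lower, and Spry1 (adjusted p = 0.0037) and Dusp8 (0.0056) became called. At the smallest depth 3 counts are 0.378 CPM, which limits Fgf8, Egr3 and Dusp2.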
